A study of Mus musculus with 4 samples.

Results

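The genes described here are 39 genes of DNA replication and the S phase of the cell cycle, looked up by symbol among 24346 rows of expression values from mouse aorta. All 39 were found. They were sorted by role into 10 genes of origin licensing, 15 of the replication fork, 5 of nucleotide supply, 5 of chromatin assembly and 4 that drive entry into S phase. The study sequenced polyadenylated RNA from aorta of C57BL/6 mice that were 3 weeks old. It has 2 libraries from wild-type mice (labelled WT) and 2 from mice with a knockout of GGPPS (labelled KO), the enzyme that makes the lipid geranylgeranyl diphosphate from its gene Ggps1. Each library is labelled with both sexes. The labels do not say in which cells the gene was deleted, which exon was removed, or whether a library came from 1 animal or several. Nothing says that the libraries came from separate animals, so the p-values measure only the spread between these libraries, which may be technical.

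DNA replication starts at origins that are licensed in G1, when the origin recognition complex, CDC6 and CDT1 load the ring-shaped MCM helicase onto DNA. In S phase CDC45 and the GINS complex join the helicase and open the fork, where polymerase alpha-primase lays down primers and polymerases epsilon and delta copy the strands, held by the sliding clamp PCNA. Many of these genes are transcribed under E2F factors, which the retinoblastoma family holds in check in resting cells, and transcripts of this kind are commonly read as a sign of cells in cycle. Most smooth muscle cells of a mature artery rest outside the cycle, whereas the vessel wall of a young mouse is still growing.

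Values are FPKM, fragment numbers adjusted to the length of the transcript and the size of the library, so levels of different genes can be compared per length. The depth of each library is unknown because counts were not among the values. FPKM summed to between 515927 and 520478 in wild type and between 611767 and 632918 in knockout. Ggps1 (mm10 chromosome 13, 14050659 to 14063488) was at 8.96 and 10.6 FPKM (wild type) and 1.18 and 1.07 FPKM (knockout), in the direction of the labels (limma log2 fold change -2.34, SE 0.13, adjusted p = 3.5e-09). All 6 smooth muscle markers (Acta2, Myh11, Tagln, Cnn1, Smtn and Lmod1) were abundant in each library, none below 56.8 FPKM. Their summed level was 15572 and 17454 FPKM in wild type, against 4000.3 and 5272 FPKM in knockout.

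Transcripts of these 39 genes were higher in knockout aorta almost throughout. Both knockout libraries stood above both wild-type libraries for 37 of the 39 genes, against 38.1% of the 17542 rows with a value above 0. The exceptions were Pola1 and Prim1, which encode catalytic subunits of polymerase alpha and primase. The summed level of the 39 genes was 203 and 199.6 FPKM in wild type, against 453 and 476 FPKM in knockout. That was 0.0394% and 0.0383% of all FPKM against 0.0740% and 0.0752%. The clamp gene Pcna supplied the largest part, and without it the sums were 145 and 143 FPKM against 333 and 347 FPKM. In bulk tissue, more cells in S phase and more transcript per cell cannot be told apart.

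Of the 39 genes, 38 reached at least 1 FPKM in at least 2 libraries and were tested on log2(FPKM + 1) with limma, a linear model with variances moderated over all 12314 genes tested. At a Benjamini-Hochberg adjusted p under 0.05, 36 rose, none fell and 2 were not called. Over all tested genes 35.2% were called higher and 30.6% lower. However, 10 of the 38 were under 1 FPKM in at least 1 wild-type library and passed the filter partly or wholly through the knockout, where they are high. Of the 28 genes at 1 FPKM or more in both wild-type libraries, 26 rose and none fell, beside 31.6% called higher and 32.6% called lower of the 11549 genes that met the same condition. The median log2 fold change of these 28 was 1.12, beside -0.019 for the 11549. When the column totals were made equal, the split over all tested genes moved from 4332 higher and 3764 lower to 3095 higher and 5620 lower and their median moved by more than 0.1, from 0.030 to -0.20. The median of the set was then 0.90 over the 37 genes that passed the filter, compared with 1.11 over 38 as deposited. These medians are 1.10 and 1.08 above the median of all tested genes.

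**Figure D1:**
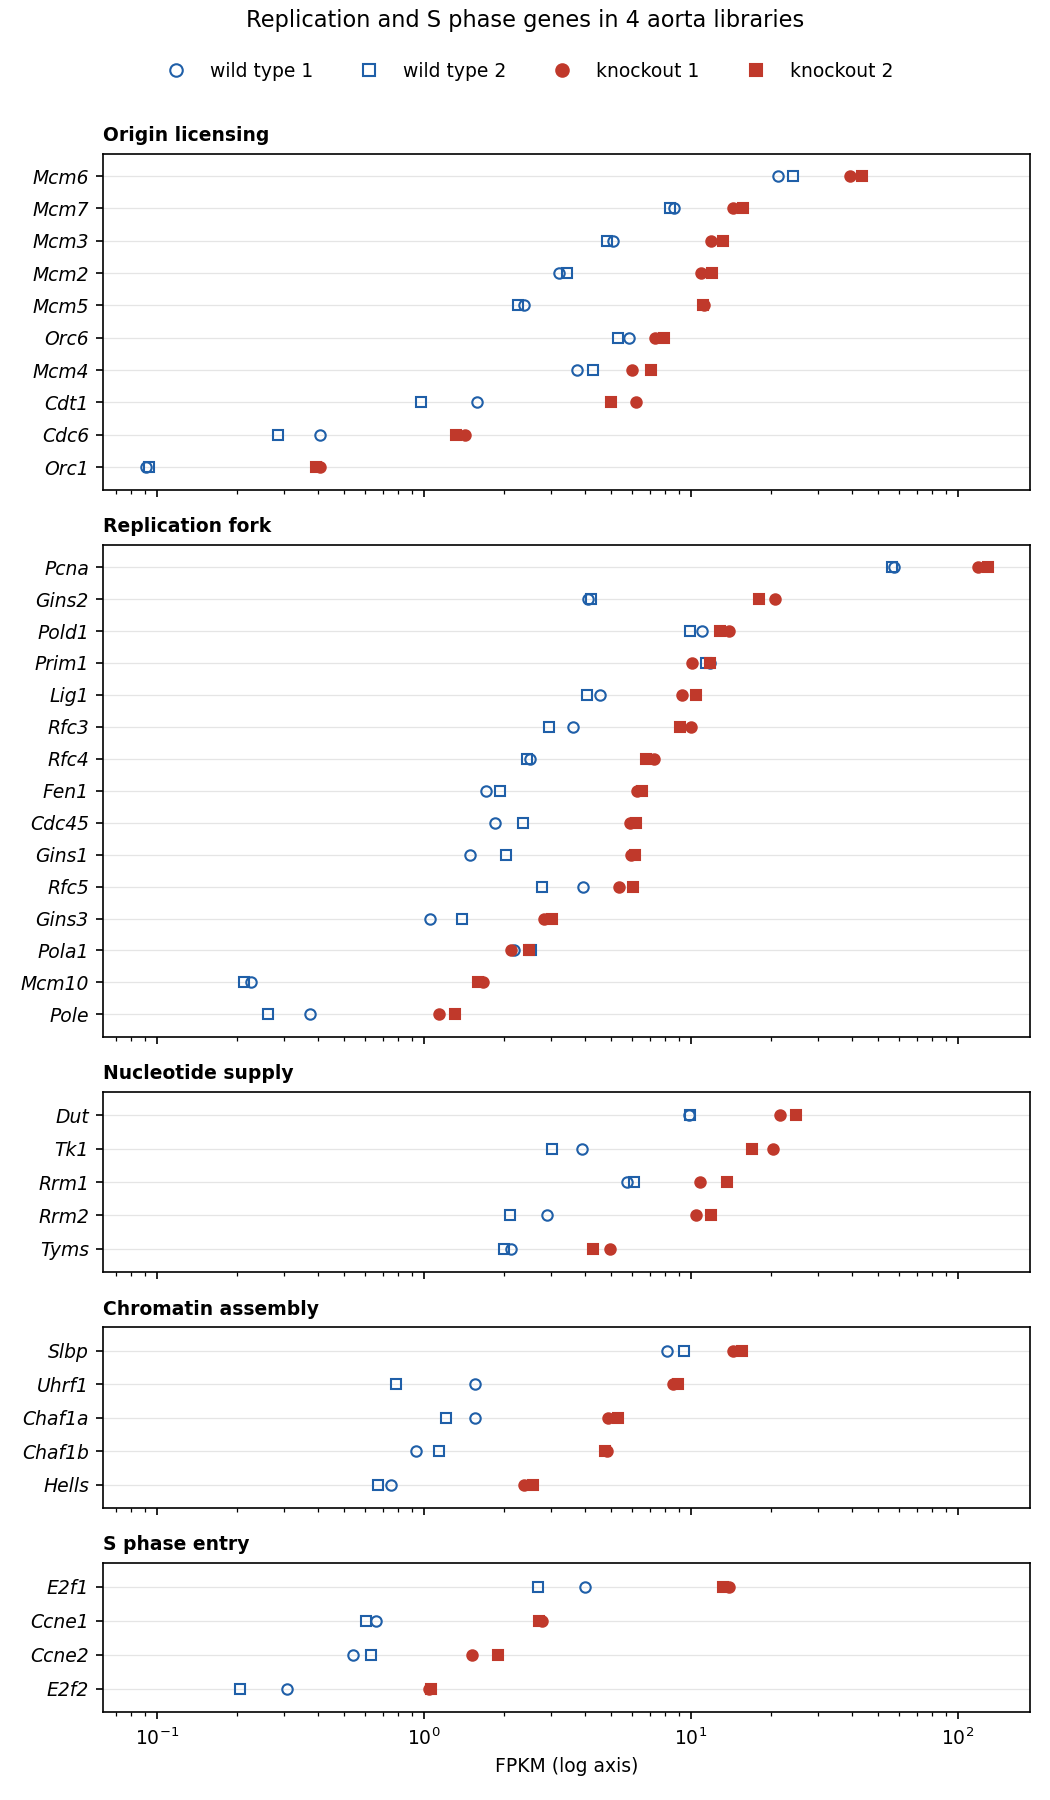
FPKM of the 39 genes (log axis) in each of the 4 libraries, by role and ordered by the knockout mean, with open blue symbols for wild type and filled red symbols for knockout. The red symbols lie to the right of the blue ones in each row except Prim1 and Pola1, and Pcna is the most abundant gene in all libraries.

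**Figure D2:**
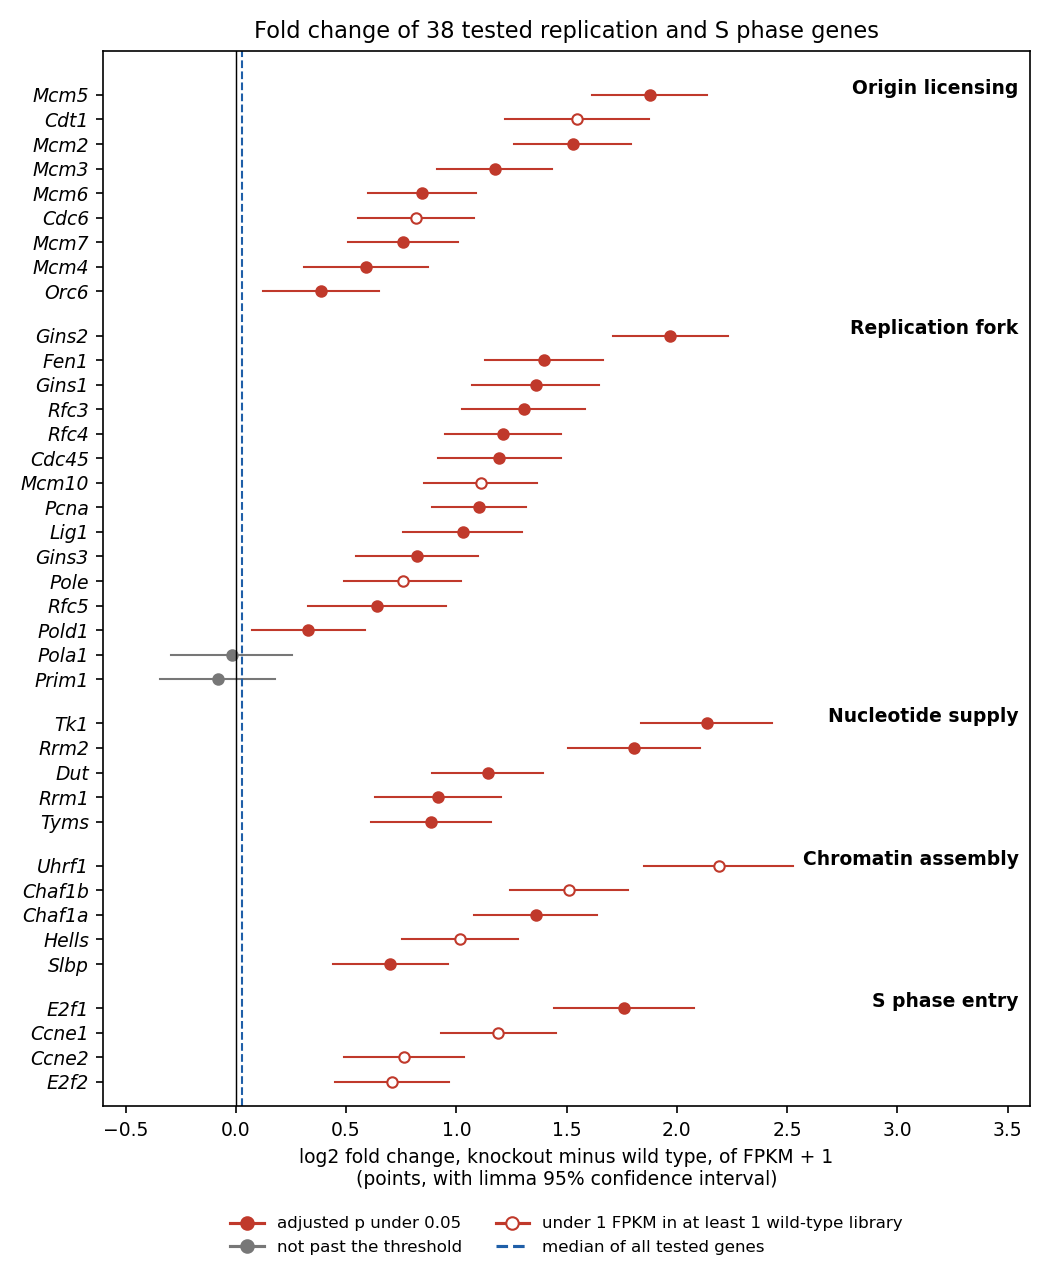
Log2 fold change of FPKM + 1, knockout minus wild type, with its limma 95% confidence interval, for the 38 tested genes by role. Open points mark genes under 1 FPKM in at least 1 wild-type library, and the dashed line is the median of all tested genes, 0.030. Of the points, 36 are past the threshold to the right, and Pola1 and Prim1 span 0.

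The 6 subunits of the MCM helicase, the ring that unwinds DNA, all rose, but by different amounts. Each was at 1 FPKM or more in both wild-type libraries, and 31.6% of all such genes were called higher. Mcm5 (mm10 chromosome 8, 75109569 to 75128439) had the lowest level of the 6 in wild type, 2.37 and 2.25 FPKM, and reached 11.2 and 11.1 FPKM in knockout, a 4.83-fold rise in mean FPKM (limma log2 fold change 1.88, SE 0.12, adjusted p = 1.53e-08). Mcm2 was at 3.20 and 3.43 FPKM against 10.9 and 12.02 FPKM, and its log2 fold change was 1.53 (limma adjusted p = 1.38e-07). Mcm3 went from 5.12 and 4.86 FPKM to 11.9 and 13.1 FPKM. The remaining 3 subunits started higher or rose less. Mcm6, the most abundant subunit, was at 21.1 and 24.2 FPKM against 39.3 and 43.5 FPKM in knockout, a 1.83-fold difference. Mcm7 was at 8.62 and 8.34 FPKM against 14.4 and 15.7 FPKM in knockout. Mcm4 rose least, from 3.74 and 4.29 FPKM to 6.03 and 7.08 FPKM (log2 fold change 0.59, 95% interval 0.31 to 0.87, limma adjusted p = 0.00125). The 95% interval of Mcm4 lies below that of Mcm5, which is 1.62 to 2.14.

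Among the loading factors, Cdt1, Cdc6 and Orc1 were scarce in wild type, whereas Orc6 was more abundant. Cdt1, which brings the MCM ring to the origin, was at 1.58 and 0.972 FPKM in wild type, against 6.21 and 5.03 FPKM in knockout, a 4.40-fold rise (limma adjusted p = 9.05e-07). Cdc6, the ATPase that works with it, was at 0.408 and 0.285 FPKM against 1.42 and 1.32 FPKM in knockout, and was tested only because the knockout libraries passed the filter. Of the origin recognition complex, Orc1 was under the filter in every library, at 0.0907 and 0.0937 FPKM against 0.407 and 0.396 FPKM in knockout. Its groups did not overlap, and it was tested only in the alternative with no filter, with a limma log2 fold change of 0.36 and an adjusted p of 0.0016. Orc6 was at 5.88 and 5.34 FPKM against 7.35 and 7.93 FPKM in knockout (log2 fold change 0.39, limma adjusted p = 0.0131). The call for Orc6 ended with equal column totals (limma log2 fold change 0.16, adjusted p = 0.223), without wild-type library 2 (limma log2 fold change 0.33, adjusted p = 0.163) and with length and GC trends removed, where the sign turned (limma log2 fold change -0.11, adjusted p = 0.296), with adjusted p over all alternatives from 0.00985 to 0.296.

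As these genes moved together, their promoters were searched for the words TTTCCCGC, TTTGGCGC, TTTCGCGC and TTTGCCGC on both strands, which are variants of the site that E2F factors are known to bind. The words can overlap each other. RefSeq windows on GRCm38.p6, the assembly of mm10, run from 250 bases before to 50 bases after each start, and 34 of the 39 genes have one (all but Mcm4, Gins1, Gins2, Pole and Ccne2). A word was found for 15 of the 34 genes (44.1%), beside 2.60% of all 27025 genes with a window and 4.68% of the 9405 tested genes with one. It was most frequent in the licensing genes, 7 of 9 (Mcm3, Mcm5, Mcm6, Mcm7, Cdc6, Cdt1 and Orc1), and was found for 5 of 12 fork genes, 2 of 5 chromatin genes, 1 of 3 entry genes and none of 5 nucleotide genes. A CCAAT box, on either strand, was found for 20 of the 34 genes (58.8%) and 41.1% of all genes with a window. A match is a match of letters and no evidence of binding. The stretches below lie before the RefSeq start of their window. They show each run of words in capitals with up to 20 bases on each side, read 5′ to 3′ on the strand of the gene. Mcm6, Rfc3 and Uhrf1 have the highest knockout level of their role among genes with a word before the start. Mcm5, with overlapping words on both strands, Cdc6, and Pola1, whose level did not pass the test, were added after their values were seen.
Mcm6 (chr1:128359784-128359835, minus strand, capitals 110 to 99 bases before the start): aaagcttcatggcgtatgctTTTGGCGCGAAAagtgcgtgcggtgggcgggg
Mcm6 (chr1:128359725-128359772, minus strand, capitals 47 to 40 bases before the start): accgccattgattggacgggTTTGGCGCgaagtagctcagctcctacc
Mcm5 (chr8:75109336-75109387, plus strand, capitals 153 to 142 bases before the start): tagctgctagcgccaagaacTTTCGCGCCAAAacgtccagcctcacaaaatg
Cdc6 (chr11:98907993-98908040, plus strand, capitals 138 to 131 bases before the start): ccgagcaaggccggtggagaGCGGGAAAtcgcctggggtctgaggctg
Rfc3 (chr5:151651209-151651238, minus strand, capitals 10 to 3 bases before the start): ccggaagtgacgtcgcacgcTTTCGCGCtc
Uhrf1 (chr17:56304108-56304155, plus strand, capitals 185 to 178 bases before the start): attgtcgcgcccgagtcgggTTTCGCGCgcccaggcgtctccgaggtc
Pola1 (chrX:93632266-93632313, minus strand, capitals 138 to 131 bases before the start): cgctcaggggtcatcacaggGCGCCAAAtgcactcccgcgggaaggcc
The Rfc3 stretch lies within an exon annotated for the gene in GENCODE vM21, and the others overlap none of theirs. Those of Cdc6 and Uhrf1 lie downstream of the gene start in GENCODE, which is before the RefSeq start used. The capitals of Mcm6 and Mcm5 in the longer runs join TTTGGCGC and TTTCGCGC read from opposite strands. The response of genes with and without a word is given side by side and was not tested. Among tested genes with a window, the 14 with a word had a median log2 fold change of 0.93 (range -0.019 to 2.19) and 13 rose, and the 19 without had a median of 1.19 (range -0.082 to 2.13) and 18 rose.

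At the fork, the genes that turn the loaded ring into a running helicase rose. Gins2 (mm10 chromosome 8, 120578633 to 120589304), a subunit of the GINS complex, had the largest change of the fork genes on the log2(FPKM + 1) scale, from 4.12 and 4.24 FPKM to 20.6 and 18.04 FPKM (limma log2 fold change 1.97, SE 0.12, adjusted p = 1.04e-08). Its partners Gins1 and Gins3 went from 1.49 and 2.03 FPKM to 5.95 and 6.16 FPKM and from 1.06 and 1.39 FPKM to 2.81 and 3.02 FPKM. Cdc45, the other helicase cofactor, was at 1.85 and 2.34 FPKM against 5.89 and 6.25 FPKM in knockout. None of these genes overlapped between genotypes. Mcm10, needed to start the helicase, stood at 0.226 and 0.212 FPKM in wild type, rising to 1.67 and 1.59 FPKM in knockout, from a level under the filter. By the ratio of mean FPKM, Mcm10 changed more than Gins2, 7.46-fold against 4.63-fold.

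Pcna (mm10 chromosome 2, 132249162 to 132253314), the sliding clamp that tethers the polymerases, was the most abundant gene of all 39, at 57.6 and 56.7 FPKM (wild type) and 119 and 129 FPKM (knockout) (limma log2 fold change 1.10, SE 0.10, adjusted p = 3.84e-07). The clamp is opened by the RFC loader, of whose small subunits Rfc3, Rfc4 and Rfc5 rose and Rfc2, outside the 39 genes, was not called. Rfc3 went from 3.62 and 2.94 FPKM to 10.005 and 9.10 FPKM, and Rfc4 from 2.50 and 2.43 FPKM to 7.26 and 6.80 FPKM. Rfc5 changed less, 3.92 and 2.76 FPKM against 5.36 and 6.08 FPKM (log2 fold change 0.64, limma adjusted p = 0.00153). Enzymes that finish the lagging strand rose as well. Fen1, the nuclease that trims Okazaki fragments, was at 1.71 and 1.93 FPKM against 6.27 and 6.56 FPKM in knockout, 3.53-fold apart, and Lig1, the ligase that seals them, at 4.55 and 4.07 FPKM against 9.26 and 10.4 FPKM in knockout, 2.28-fold apart.

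The polymerase genes held both exceptions. Pola1 (mm10 chromosome X, 93304767 to 93632155), the catalytic subunit of polymerase alpha, was at 2.18 and 2.51 FPKM in wild type, against 2.12 and 2.47 FPKM in knockout, and Prim1 (mm10 chromosome 10, 128015168 to 128030037), the catalytic subunit of primase, at 11.8 and 11.4 FPKM against 10.1 and 11.7 FPKM in knockout. Both genes overlapped between genotypes. Per length, Prim1 stood at 0.205 and 0.200 of Pcna in the wild-type libraries and at 0.0847 and 0.0910 of it in knockout. The log2 fold change of Pola1 was -0.019 with a 95% interval of -0.29 to 0.26 (limma adjusted p = 0.907) and that of Prim1 -0.082 with an interval of -0.34 to 0.18 (limma adjusted p = 0.566). Each upper bound lies below the lower bound of every other tested gene of the set except Orc6 and Pold1. For Prim1 a fall was called with equal column totals (limma log2 fold change -0.32, adjusted p = 0.0184) and with length and GC trends removed (limma log2 fold change -0.31, adjusted p = 0.00939), with adjusted p over all alternatives from 0.00939 to 0.883. Pold1, the catalytic subunit of polymerase delta, was at 11.0 and 9.89 FPKM against 13.9 and 12.8 FPKM in knockout (log2 fold change 0.33, limma adjusted p = 0.0257). That call ended with equal column totals (limma log2 fold change 0.085, adjusted p = 0.512) and without wild-type library 1 (limma log2 fold change 0.40, adjusted p = 0.0766), wild-type library 2 (0.26, adjusted p = 0.270) or knockout library 1 (0.28, adjusted p = 0.0778), with adjusted p over all alternatives from 0.00101 to 0.512. Pole, the catalytic subunit of polymerase epsilon, rose from 0.375 and 0.260 FPKM to 1.14 and 1.31 FPKM. It passed the filter through the knockout libraries alone, and stood at rank 36 of 39 by level in wild type and 37 in knockout.

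All 5 genes of nucleotide supply rose, and each was above 1 FPKM in both wild-type libraries, so the filter did not choose them by their knockout level. Of all genes at 1 FPKM or more in both wild-type libraries, 31.6% were called higher. Tk1 (mm10 chromosome 11, 117815526 to 117826092), the thymidine kinase of dividing cells, had the largest change, from 3.92 and 3.02 FPKM to 20.2 and 17.0 FPKM (limma log2 fold change 2.13, SE 0.14, adjusted p = 1.59e-08). Per length it stood at 0.487 and 0.378 of its mitochondrial counterpart Tk2 in wild type and at 2.00 and 1.70 of it in knockout. Ribonucleotide reductase makes deoxyribonucleotides from a large subunit, Rrm1, and a small one, Rrm2, whose level is known to follow S phase. Rrm2 went from 2.88 and 2.10 FPKM to 10.5 and 11.8 FPKM and Rrm1 from 5.75 and 6.13 FPKM to 10.8 and 13.6 FPKM. Per length, the ratio of Rrm2 to Rrm1 was 0.501 and 0.343 in wild type and 0.973 and 0.871 in knockout. Tyms, which makes thymidylate, was at 2.12 and 1.99 FPKM against 4.98 and 4.31 FPKM in knockout, and a pseudogene, Tyms-ps, is also listed, so its level is less certain. Dut, which removes dUTP, was at 9.83 and 9.90 FPKM against 21.5 and 24.7 FPKM in knockout. By summed level, the 5 genes were at 24.5 and 23.1 FPKM in wild type, against 67.9 and 71.4 FPKM in knockout, 2.92-fold apart. Summed licensing genes and summed fork genes were each 2.13-fold apart, and summed chromatin genes 2.75-fold. The summed genes of S phase entry were further apart than those of nucleotide supply. Sums weigh abundant genes most. Among the roles, the median gene ratio of knockout to wild-type mean was lowest for nucleotide supply, at 2.34. That median was 2.98 for licensing and 2.86 for fork genes.

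Genes that rebuild chromatin behind the fork rose in 5 of 5 cases, beside 35.2% of all tested genes. Of these, 3 rose from under 1 FPKM in at least 1 wild-type library. The 2 at 1 FPKM or more in both wild-type libraries rose, beside 31.6% of all such genes. Uhrf1 (mm10 chromosome 17, 56303321 to 56323486), which reads hemimethylated DNA and brings in the maintenance methyltransferase, had the largest log2 fold change of FPKM + 1 of the 38 tested genes, 2.19 (SE 0.16, limma adjusted p = 4.51e-08), with 1.55 and 0.786 FPKM in wild type, rising to 8.54 and 8.94 FPKM in knockout. Chaf1a and Chaf1b, which encode subunits of the histone chaperone CAF-1, rose to similar levels. Chaf1a went from 1.55 and 1.21 FPKM to 4.87 and 5.33 FPKM and Chaf1b from 0.936 and 1.14 FPKM to 4.85 and 4.76 FPKM. Hells, a chromatin remodeller, was at 0.754 and 0.674 FPKM against 2.37 and 2.57 FPKM in knockout. Slbp, which binds the stem-loop of histone mRNA, had the highest level of this role and the smallest change, 8.14 and 9.44 FPKM against 14.3 and 15.5 FPKM (log2 fold change 0.70, limma adjusted p = 1.8e-04).

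Genes that drive entry into S phase were also higher. E2f1, an activating E2F factor, rose from 4.01 and 2.67 FPKM to 13.9 and 13.2 FPKM, 4.05-fold (limma log2 fold change 1.76, SE 0.15, adjusted p = 2.05e-07). The other activator among the 39, E2f2, was at 0.308 and 0.205 FPKM against 1.04 and 1.07 FPKM in knockout. Both E cyclins, which switch on the kinase CDK2, rose from under 1 FPKM. Ccne1 went from 0.662 and 0.608 FPKM to 2.77 and 2.69 FPKM and Ccne2 from 0.540 and 0.634 FPKM to 1.51 and 1.89 FPKM. E2f2, Ccne1 and Ccne2 passed the filter through the knockout libraries alone.

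The order of the genes by level shifted between genotypes. In wild type, Pcna (mean 57.2 FPKM) and Mcm6 (22.7 FPKM) were followed by Prim1 (11.6 FPKM), Pold1 (10.4 FPKM) and Dut (9.87 FPKM), where the libraries of Prim1 and Pold1 were separate and those of Pold1 and Dut overlapped. In knockout, Pcna (124 FPKM) and Mcm6 (41.4 FPKM) were followed by Dut (23.1 FPKM), Gins2 (19.3 FPKM) and Tk1 (18.6 FPKM), with the libraries of Gins2 and Tk1 overlapping. Prim1 stood at rank 15, Gins2 had moved from rank 12 to 4, Tk1 from 14 to 5 and Uhrf1 from 30 to 18. The 9 genes that averaged 5 FPKM or more in wild type had ratios of knockout to wild-type mean from 0.942 to 2.34, with a median of 1.77. The 30 below it ran from 0.982 to 7.47, with a median of 3.61. The wild-type value enters both the split and the ratio, so this is a description only.

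Within several replication complexes the levels of the subunits lay closer together in knockout. The ratio of the highest to the lowest of the MCM2 to MCM7 genes was 8.92 and 10.8 in the wild-type libraries and 6.51 and 6.15 in knockout. For GINS, with Gins4 added to the 3 genes above, it was 14.6 and 12.7 against 7.33 and 6.81. Gins4 was already at 15.5 and 17.7 FPKM in wild type and at 20.5 and 20.6 FPKM in knockout, near Gins2 (limma adjusted p = 0.0349, a call that ended in 7 of 13 alternatives and turned in sign, to -0.15, with length and GC trends removed, with adjusted p over all alternatives from 0.0293 to 0.712). For the clamp loader the ratio was 9.82 and 10.02 against 4.79 and 5.18, where Rfc2 and Rfc1 were not called (limma adjusted p = 0.131 and 0.496) while Rfc3, Rfc4 and Rfc5 rose. In the origin recognition complex it was 116 and 112 against 25.1 and 27.8, with Orc1 lowest throughout. In polymerase epsilon it was 85.4 and 117 against 36.5 and 37.8, with Pole lowest throughout. Polymerase delta and replication protein A went the other way. Their ratios were 5.48 and 6.77 against 14.03 and 10.52, and 3.56 and 3.54 against 5.31 and 5.99, as the small subunits Pold4 and Rpa3 rose. Polymerase alpha-primase stayed between 4.53 and 5.42 in all libraries.

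**Figure D3:**
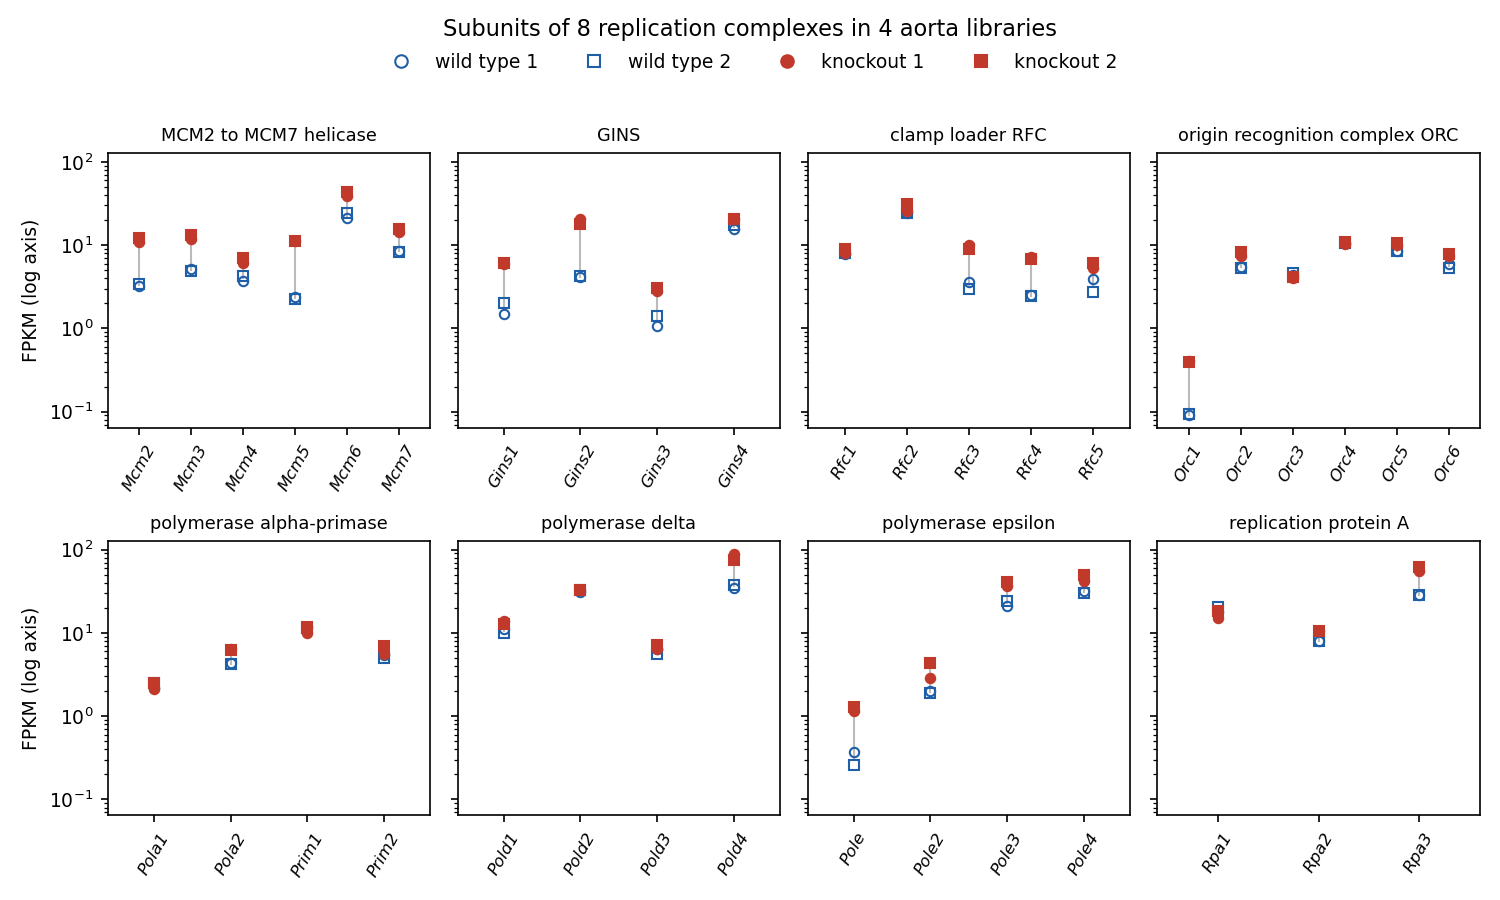
FPKM (log axis) of each subunit of 8 replication complexes, genes outside the 39 included, with open blue symbols for wild type, filled red symbols for knockout and a grey line between the means. In GINS the lowest and highest subunits lie 14.6-fold and 12.7-fold apart in wild type and 7.33-fold and 6.81-fold apart in knockout, and in polymerase alpha-primase the 4 libraries nearly coincide at Prim1 and Pola1.

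A further 75 genes of the pathway, listed by role, moved less uniformly. Of 69 tested, 38 rose, 4 fell and 27 were not called, with a median log2 fold change of 0.31. Of the 57 at 1 FPKM or more in both wild-type libraries, 26 rose and 4 fell, with a median of 0.26, beside 31.6% and 32.6% of all genes that met that condition. With equal column totals the split was 25 higher and 14 lower. The licensing list gave 5 rises and no fall of 10 genes, beside 35.2% and 30.6% of all tested genes. Of its 7 genes at 1 FPKM or more in both wild-type libraries 2 rose, near the share of all such genes. Gmnn, geminin, the inhibitor of CDT1, rose from 4.77 and 4.87 FPKM to 14.1 and 14.9 FPKM beside Cdt1, and the ratio of Cdt1 to Gmnn was 0.332 and 0.199 in wild type and 0.441 and 0.338 in knockout, so that the genotypes were separated by less than the spread within either. Dbf4, the activator of the kinase CDC7 that fires origins, rose from 0.761 and 0.528 FPKM to 4.06 and 4.95 FPKM, and Cdc7 itself from 1.07 and 0.650 FPKM to 1.93 and 2.17 FPKM. Mcm8, a relative of the MCM ring genes, rose from under 1 FPKM (limma adjusted p = 0.00345).

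The other fork genes gave 18 rises and no fall of 29 tested, beside 35.2% and 30.6% of all tested genes. Of the 25 at 1 FPKM or more in both wild-type libraries 14 rose and none fell, beside 31.6% and 32.6% of all such genes. The smallest p was that of Pold4 (35.1 and 37.3 FPKM to 89.3 and 74.5 FPKM). Next came Rpa3, the small subunit of the single-strand binding protein (28.6 and 28.4 FPKM to 56.1 and 62.4 FPKM). The checkpoint mediator Clspn and the clamp-loader factor Dscc1 followed. Clspn went from 0.272 and 0.227 FPKM to 1.23 and 1.60 FPKM, and Dscc1 from 0.0560 and 0.327 FPKM to 1.13 and 1.74 FPKM. Both passed the filter through the knockout libraries alone. The remaining subunits of polymerase alpha-primase differed from each other in call: Pola2 rose (4.30 and 4.20 FPKM to 6.33 and 6.27 FPKM, limma adjusted p = 0.00332), whereas Prim2 was at 5.44 and 5.03 FPKM against 5.57 and 6.90 FPKM in knockout (limma adjusted p = 0.177). The difference between Pola2 and Prim2 was not tested. The Pola2 call ended with equal column totals.

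Among other nucleotide genes, 5 of 8 tested rose and 1 fell, beside 35.2% and 30.6% of all tested genes. Of the 6 at 1 FPKM or more in both wild-type libraries 3 rose and 1 fell, beside 31.6% and 32.6% of all such genes. Dctd, deoxycytidylate deaminase, went from 0.294 and 0.460 FPKM to 4.20 and 4.98 FPKM (log2 fold change 2.02, limma adjusted p = 1.61e-08). It passed the filter through the knockout libraries alone. Dtymk, thymidylate kinase, was the most abundant at 70.7 and 66.5 FPKM against 117 and 111 FPKM in knockout, and its call ended with length and GC trends removed (limma log2 fold change 0.20, adjusted p = 0.0711, with adjusted p over all alternatives from 2.58e-06 to 0.0711). Dck, deoxycytidine kinase, rose 1.87-fold. The one that fell was Rrm2b, the reductase subunit used outside S phase, from 4.74 and 5.47 FPKM to 3.57 and 4.17 FPKM (limma adjusted p = 0.0408). That call ended with no filter and without wild-type library 1, wild-type library 2 or knockout library 1 (limma adjusted p = 0.0994, 0.0654, 0.311 and 0.161, with adjusted p over all alternatives from 0.00155 to 0.311). Per length, Rrm2 stood at 0.608 and 0.384 of Rrm2b in wild type and at 2.93 and 2.84 of it in knockout.

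Other chromatin genes rose in 4 of 8 cases, beside 35.2% of all tested genes, and in 2 of the 6 cases at 1 FPKM or more in both wild-type libraries, near the 31.6% of all such genes. The histone chaperone gene Asf1b went from 1.20 and 0.597 FPKM to 4.40 and 4.01 FPKM and the cohesin acetyltransferase gene Esco2 from 0.646 and 0.253 FPKM to 1.59 and 1.77 FPKM. The calls for Asf1a and Nasp, also histone chaperone genes, each ended in 5 of 13 alternatives, with limma adjusted p over all alternatives from 0.0159 to 0.568 and from 0.0195 to 0.608. The alternatives that ended both were equal column totals, length and GC trends removed, and leaving out wild-type library 1 or knockout library 2. The log2 fold changes of Asf1a were 0.24 and 0.24 without those libraries, and those of Nasp 0.34 and 0.26.

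Of 14 other regulators tested, 6 rose and 3 fell. Of the 13 at 1 FPKM or more in both wild-type libraries 5 rose and 3 fell, near the shares of all such genes. Ccna2, cyclin A2, which acts through S phase, rose from 2.51 and 1.78 FPKM to 13.4 and 14.4 FPKM (log2 fold change 2.25, limma adjusted p = 9.58e-09). E2f8, a repressive E2F factor, was at 0.275 and 0.153 FPKM against 1.60 and 1.40 FPKM in knockout. The 3 that fell were Rbl2, Tfdp2 and Rb1. Rbl2, the retinoblastoma relative p130 of resting cells, fell from 11.0 and 12.4 FPKM to 4.07 and 5.61 FPKM (limma log2 fold change -1.13, SE 0.14, adjusted p = 1e-05). Tfdp2, a dimer partner of E2F factors, went from 6.47 and 6.34 FPKM down to 2.85 and 3.46 FPKM. Rb1, the retinoblastoma gene itself, was at 5.57 and 6.38 FPKM against 3.15 and 4.48 FPKM in knockout (limma adjusted p = 0.00498), and its call ended without knockout library 1 (limma log2 fold change -0.34, adjusted p = 0.0595, with adjusted p over all alternatives from 3.48e-04 to 0.0595). Rbl1, the relative p107, rose, and the ratio of Rbl1 to Rbl2 was 0.186 and 0.142 in wild type and 0.861 and 0.796 in knockout. The other dimer partner, Tfdp1, rose from 23.7 and 22.7 FPKM to 27.3 and 30.4 FPKM, and E2f4, a factor that works with p130, from 24.6 and 22.2 FPKM to 33.3 and 31.4 FPKM (limma adjusted p = 0.0272 and 0.00238). With equal column totals and without wild-type library 2 neither was called, and Tfdp1 was also not called with length and GC trends removed and without wild-type library 1 or knockout library 2, with adjusted p over all alternatives from 0.0141 to 0.691 and from 0.00136 to 0.107. The kinase gene Cdk2, the partner of the E and A cyclins, was not called, at 13.8 and 10.4 FPKM against 10.4 and 11.5 FPKM in knockout.

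**Figure D4:**
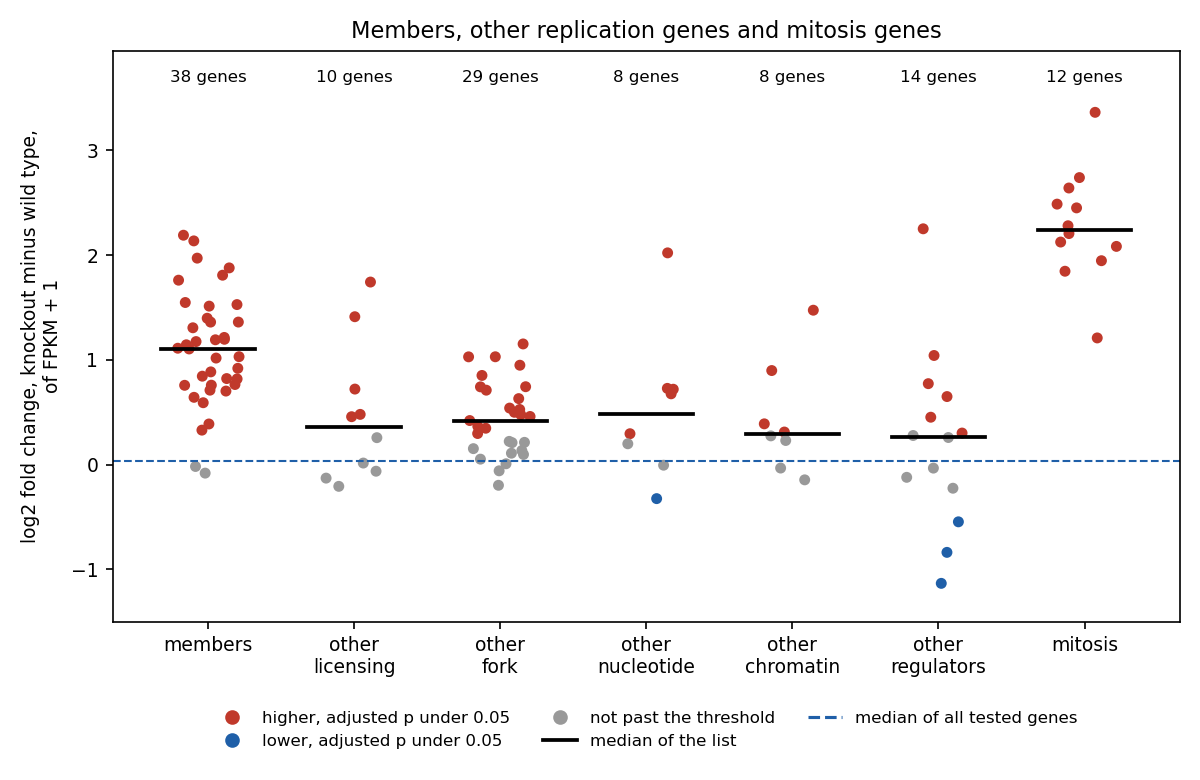
Log2 fold change of FPKM + 1, knockout minus wild type, for the 38 tested genes of the set (members), the 69 tested other pathway genes by role and 12 mitosis genes, with 1 point per gene, black bars at list medians and a dashed line at the median of all tested genes. The median is 1.11 for the 38 genes, 0.31 for the other 69 and 2.24 for mitosis, and the 4 blue points are Rrm2b, Rb1, Tfdp2 and Rbl2.

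Genes of mitosis, given for comparison, rose in 12 of 12 cases with ratios of knockout to wild-type mean from 6.14 to 13.6. Among them were the mitotic cyclins Ccnb1 (1.14 and 0.817 FPKM to 11.1 and 11.5 FPKM) and Ccnb2 (1.56 and 1.30 FPKM to 12.4 and 12.8 FPKM), Birc5, survivin (1.75 and 1.76 FPKM to 17.9 and 16.9 FPKM) and Ube2c, which helps to degrade the cyclins (3.18 and 2.35 FPKM to 40.1 and 35.1 FPKM). The ratio of the summed 39 genes to the summed 12 was 10.3 and 13.7 in wild type and 2.99 and 3.21 in knockout, and the genotypes did not overlap. Without Pcna it was 7.40 and 9.82 against 2.20 and 2.34. The sums cover unequal numbers of genes, so the ratio does not compare levels per gene. No exact permutation test was made, since with 2 libraries against 2 its two-sided p cannot pass the threshold of 0.05. Of the 12 genes, 5 were under 1 FPKM in at least 1 wild-type library. The other 7 all rose, beside 31.6% of all genes at 1 FPKM or more in both wild-type libraries.

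Markers of other cells moved in the same libraries. All 7 macrophage markers rose, and their summed level was 43.2 and 46.2 FPKM in wild type, against 329 and 279.8 FPKM in knockout. All 5 general leukocyte genes rose, from a sum of 5.05 and 4.61 FPKM to 72.5 and 66.8 FPKM. At 1 FPKM or more in both wild-type libraries were 5 of the macrophage markers and 1 of the leukocyte genes. The others passed the filter partly or wholly through the knockout, where they are high. Over all tested genes 35.2% were called higher and 30.6% lower. Fibroblast markers fell in 5 of 6 cases, with Lum higher, and their sum was 547 and 589 FPKM against 358 and 381 FPKM. Endothelial markers fell in 5 of 5 tested cases (217 and 225 FPKM in sum against 59.0 and 73.7 FPKM), and smooth muscle markers fell in 6 of 6. T, NK and B cell markers stayed at or under 0.379 FPKM, with Cd3e, Cd3d and Nkg7 listed at 0 in both wild-type libraries. Of 4 erythroid markers 2 were tested and none was called. Their sum was 130 and 161 FPKM in wild type, against 38.1 and 164 FPKM in knockout, so it differed between the knockout libraries. Which cells carried the replication transcripts, and the part of these shifts in the rises above, was not tested.

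Exons of 14 of the 39 genes share bases with a gene on the opposite strand in GENCODE vM21. The longest shared stretches were 2758 bases of Gins2 with Gse1, 1908 bases of Fen1 with Gm10143 and 1862 bases of Chaf1a with Ubxn6. Gse1 was at 1.68 and 1.86 FPKM in wild type, against 2.90 and 2.85 FPKM in knockout, below Gins2 in each library. Ubxn6 was at 65.1 and 62.5 FPKM against 90.4 and 86.4 FPKM, above Chaf1a in each library. Rfc5 shares 499 bases with Wsb2, which was at 47.6 and 42.4 FPKM against 91.5 and 91.6 FPKM in knockout. Fen1 also shares 130 bases with Tmem258, at 248 and 239 FPKM against 568 and 533 FPKM. Vps35 beside Orc6 and Cops6 beside Mcm7 were also higher in knockout. Eif4a2, Ap4m1, Afmid and Ints8, which share bases with Rfc4, Mcm7, Tk1 and Ccne2, were lower. The sources used here do not say whether counting used strand, so reads of such pairs may not be told apart.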

How the data were processed

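Polyadenylated RNA of 4 aorta libraries was analysed, grouped by the genotype label into 2 wild-type and 2 knockout libraries. The numbers 1 and 2 are names only and pair nothing. The authors deposited 1 table of FPKM per library, per the file headers, which misspell the unit. Per the submitters' processing notes, the tools were DESeq2 1.16.1, HISAT2 2.0.5 and featureCounts 1.5.0-p3 and the build was mm10, with no role for each. The sources used here do not name the program that made FPKM. FPKM hides depth: where both libraries of a genotype were below 0.3 FPKM, their most frequent ratio covered 0.302% and 0.320% of 1987 and 2188 genes, so no step of whole fragments was found and precision rests on the spread between libraries.

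The 12314 genes that reached 1 FPKM in 2 or more libraries were tested on log2(FPKM + 1) with limma 3.58.1 (R 4.3.3), letting the variance follow the intensity, with Benjamini-Hochberg adjustment over all of them and a threshold of 0.05. The total degrees of freedom were 13.4. Log2 fold changes on this scale understate the change of low genes, and folds named as such are ratios of mean FPKM. The fit was tested on simulated data. The 13 alternatives covered the pseudocount, the filter, library scaling, length and GC trends, variance estimation and leaving out each library. Length and GC came from the longest GENCODE vM21 transcript, matched for 39 of 39 genes of the set and 11856 tested genes.

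Genes and lists were chosen with earlier results of these data known. Values in each library were to be given for genes of the set with a knockout mean of at least 5 FPKM, and the others by range or value. From each other list, up to 4 genes called with the smallest p were named, plus those called lower. A gene that this rule names is not reported here. Lum, Pola2, Prim2, Gins4, Rfc1, Rfc2, Rbl1, Tfdp1, E2f4, Tk2 and Cdk2 were added after their values were seen, as a marker against its list or as subunits, relatives or partners of named genes. Date-like symbols on repeated rows were left out of the lists.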

Additional observations from a re-analysis of the deposited data

How the results depend on the processing

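Of the 36 genes of the set called higher, 34 were called higher in every alternative in which they were fitted. Orc6 and Pold1 were the exceptions. The count called higher stayed between 32 and 37, but the number of genes fitted also changed. It was 32 of 34 with a filter on the mean of the 4 libraries, 33 of 37 with equal column totals and 37 of 39 with no filter. The count called lower was 0 except for 1 gene, Prim1, with equal column totals and with length and GC trends removed. The median log2 fold change of the set, 1.11, was 1.51 with a pseudocount of 0.1, 0.65 with a pseudocount of 5, 1.16 with a filter on the mean of the 4 libraries, 0.90 with equal column totals and 0.90 with length and GC trends removed. Leaving out 1 library in turn gave 1.05 to 1.13. The sign turned for Orc6 with length and GC trends removed (-0.11) and for Pola1 with those trends removed (0.032). Over the libraries left out in turn, Pola1 ran from -0.095 to 0.058, positive without wild-type library 2 (0.053) and without knockout library 1, and Prim1 from -0.18 to 0.018, positive without knockout library 1. For the other pathway genes, equal column totals gave 25 higher, 14 lower and a median of 0.093, and removing length and GC trends gave 10 lower and a median of 0.16. Leaving out 1 library gave 30 to 44 higher and 2 to 6 lower, with 2 lower without knockout library 1. With equal column totals the knockout to wild-type ratios of summed FPKM were 1.77 for licensing, 1.77 for fork, 2.43 for nucleotide and 2.29 for chromatin genes. Length and GC trends, like column totals, differ between the genotypes, and the cause was not tested. No paired analysis was possible because no label ties a wild-type library to a knockout library, and the numbers 1 and 2 used here only name them. Depth is unknown, so no detection limit is given for genes near 0, such as Orc1.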
